A study of Glycine max with 54 samples.

Results

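The 6 soybean genes described here belong to the salicylic acid (SA) branch of plant defense, and they were chosen by identifier. They are the ICS1 genes GLYMA01G25690 and GLYMA03G17420, the EDS1 genes GLYMA04G34800 and GLYMA06G19920, the PAD4 gene GLYMA08G00420 and the NPR1 gene GLYMA09G02430. They make up 6 of the 53971 loci with values, all 6 had a value in each of the 54 libraries, and all 6 passed the filter on low counts in each of the 36 comparisons. The chromosome is the first number of each identifier. The study's list of SA genes names 3 of them (GLYMA01G25690, GLYMA06G19920 and GLYMA08G00420), whereas the names of the other 3 come from the member list alone. The deposited counts of both ICS1 genes were not whole (by more than 0.02) in 17 libraries while their sum was whole in all 54, so that the division of reads within this pair is uncertain. Both EDS1 genes had whole counts in all 54 libraries, and those of PAD4 and NPR1 were not whole in 16 and 52.

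RNA was sequenced from caged areas of the first trifoliolate leaf of the susceptible genotype Dongnong47, the antixenotic P203 (aphids avoid it) and the antibiotic P746 (aphids do poorly on it). Infested leaflets carried 6 soybean aphids (Aphis glycines) in a cage, and mock leaflets carried the same cage without aphids. Leaves were harvested 24, 48 or 96 hours after incubation (HAI) began, with 3 biological replicates in each of the 18 groups. All plants were grown at 26 °C and 70% humidity with 16 h of light.

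SA is made in plants by the isochorismate route and the phenylalanine route. Isochorismate synthase (ICS1) acts in the plastid and starts the former, phenylalanine ammonia-lyase (PAL) starts the latter, and isochorismate is also a precursor of vitamin K1 in leaves. EDS1 and PAD4 are lipase-like proteins that bind each other and, in Arabidopsis, raise SA levels after attack. NPR1 senses SA and acts with TGA factors to switch on defense genes. PAD4 is also known from Arabidopsis as a component of resistance to phloem-feeding aphids.

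Several libraries have to be read with caution. Total counts ranged from 16596469 to 34982790 per library, and replicates differed by far more than counting noise (chi-square per gene of at least 24.9 for each pair of replicates). Genotype labels were checked with genes that separated the mock libraries of 24 HAI. The library labelled Dongnong47, 96 HAI, infested, replicate 1 had the Dongnong47 form at 7.46% of the 67 genes that separate Dongnong47 from P203. Other Dongnong47 libraries that were not used to pick these genes had it at 80.6% to 97.0%. Infested replicate 3 of P746 at 48 HAI, by contrast, carried the Dongnong47 form at 83.6% of them. Libraries labelled P746 at 48 and 96 HAI had the P203 form at 55.9% to 95.6% of the 68 genes that separate P203 from P746. At 96 HAI it was found at 94.1% to 95.6% in the mock libraries and at 94.1%, 72.1% and 75% in infested replicates 1, 2 and 3. Infested libraries of P746 at 24 HAI had that form at 92.6%, 4.41% and 45.6% of these genes (replicates 1, 2 and 3). The mock libraries of 24 HAI, used to pick the genes, had it at 0%. Genotype names below are those of the labels. P203 and P746 cannot be taken as distinct genotypes at 48 and 96 HAI, and infested P746 at 24 HAI is mixed by these genes. Values were missing on chromosomes 14 to 20, whereas the members lie on chromosomes 1 to 9 and lacked none. The missing values still enter the library totals by which all counts are scaled. Because whole pieces of leaf were sequenced, fewer cells of a type and less RNA per cell cannot be told apart.

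Levels are given as CPM, counts scaled to the size of the library with TMM factors, and are compared between libraries of the same gene only. Across the 54 libraries, the ICS1 gene GLYMA01G25690 had the widest range of the 6 genes (51.2-fold), from 1.71 to 87.4 CPM with a median of 21.2. The ICS1 gene GLYMA03G17420 ranged from 3.04 to 41.3 CPM (median 14.5). Between 1.94 and 38.1 CPM (median 14.5) were found for the EDS1 gene GLYMA04G34800, and between 2.35 and 74.3 CPM (median 21.1) for the EDS1 gene GLYMA06G19920. The PAD4 gene ranged from 4.43 to 73.9 CPM (median 14.7), and NPR1 from 16.8 to 82.1 CPM (median 37.7), a 4.87-fold span that was the smallest of the 6 as a ratio.

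**Figure D1:**
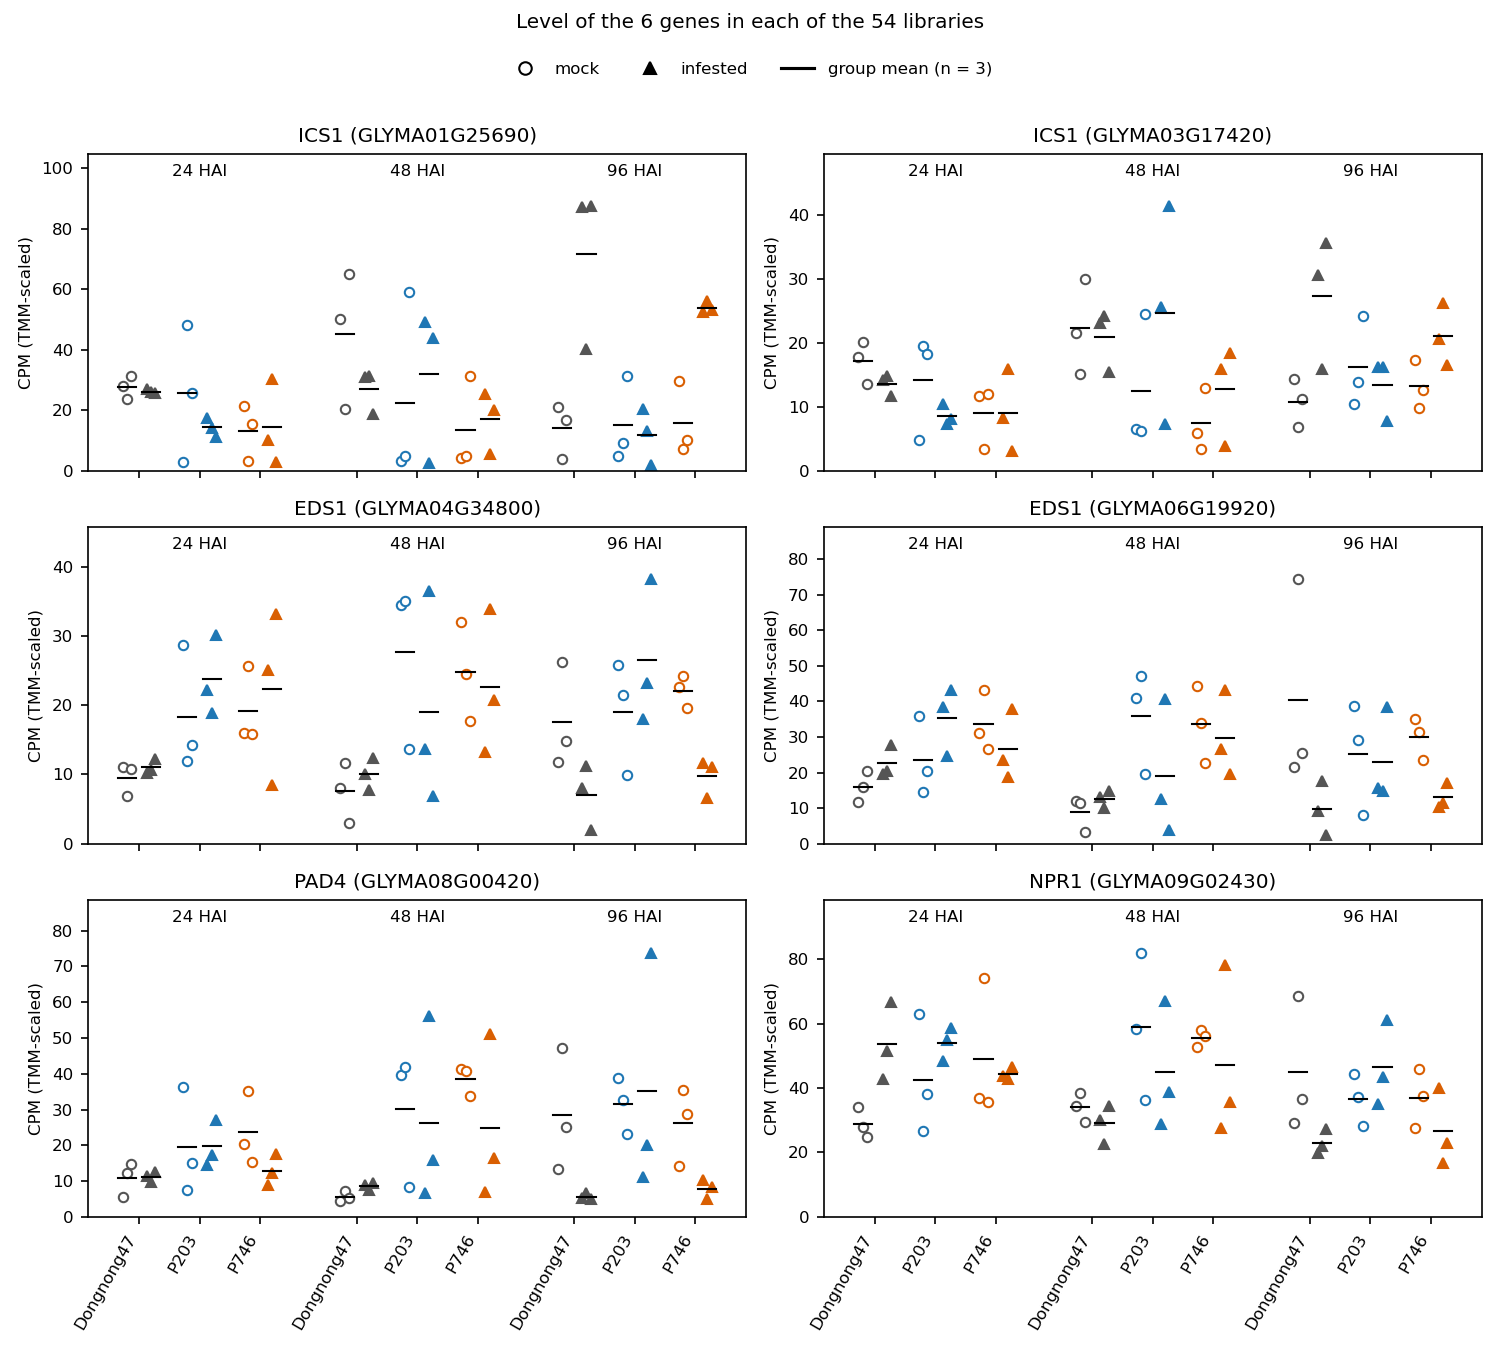
CPM of each gene (vertical axis, from 0) in the 54 libraries, by time point and labelled genotype. Open circles are mock, filled triangles infested and bars group means of 3; GLYMA01G25690 spans 1.71 to 87.4 CPM and libraries of one group often lie far apart.

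In Dongnong47, the ICS1 gene GLYMA01G25690 stood at 27.9, 23.8 and 31.2 CPM in mock and 26.9, 25.9 and 25.6 CPM in infested libraries at 24 HAI. At 48 HAI its mock values were 50.2, 20.5 and 65.1 CPM and its infested values 31.0, 31.4 and 18.8 CPM. At 96 HAI they were 21.1, 3.84 and 16.9 CPM in mock against 87.0, 40.1 and 87.4 CPM in infested leaves. Infested and mock leaves of Dongnong47 were thus apart at 96 HAI, and overlapped at 24 and 48 HAI.

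P203 showed a different spread of this ICS1 gene, with 2.73, 48.2 and 25.8 CPM in mock and 17.5, 14.1 and 11.2 CPM in infested libraries at 24 HAI. Mock values at 48 HAI were 3.26, 4.71 and 59.0 CPM, and infested values 49.3, 2.50 and 43.7 CPM. By 96 HAI, mock libraries held 4.88, 9.09 and 31.3 CPM and infested libraries 20.5, 13.2 and 1.71 CPM. Libraries of one P203 group thus held both some of the lowest and some of the highest values of the gene, and mock and infested overlapped at every time point.

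In P746, GLYMA01G25690 had 21.3, 3.05 and 15.3 CPM in mock and 10.2, 30.4 and 2.69 CPM in infested libraries at 24 HAI. It had 4.03, 4.72 and 31.2 CPM in mock and 25.3, 5.65 and 20.1 CPM in infested libraries at 48 HAI. At 96 HAI the mock values were 29.7, 6.99 and 10.3 CPM and the infested values 52.3, 56.2 and 53.0 CPM. As in Dongnong47, the groups were apart only at 96 HAI.

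PAD4 in Dongnong47 had 5.42, 12.3 and 14.8 CPM in mock and 11.3, 9.71 and 12.7 CPM in infested libraries at 24 HAI. Its 48 HAI values were 4.43, 7.18 and 5.19 CPM in mock and 8.81, 7.38 and 9.50 CPM in infested libraries. At 96 HAI mock leaves reached 13.3, 47.1 and 25.0 CPM, while infested leaves stayed at 5.36, 6.60 and 5.10 CPM. The 3 infested libraries of 96 HAI were below all 3 mock libraries, and the 2 highest values of the genotype were in mock libraries of 96 HAI.

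In P203, PAD4 was measured at 36.4, 7.40 and 15 CPM in mock and 14.6, 17.4 and 27.0 CPM in infested libraries of 24 HAI. The 48 HAI values were 39.8, 42.0 and 8.27 CPM in mock and 6.57, 56.3 and 15.9 CPM in infested libraries. At 96 HAI mock libraries held 38.7, 32.7 and 23.2 CPM and infested libraries 11.2, 20.1 and 73.9 CPM. The highest PAD4 value of all 54 libraries (73.9 CPM) was in the library with the lowest GLYMA01G25690 value (1.71 CPM).

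P746 had 20.5, 35.1 and 15.4 CPM of PAD4 in mock and 8.84, 12.3 and 17.6 CPM in infested libraries at 24 HAI. Mock libraries of 48 HAI agreed well, at 41.3, 40.7 and 33.8 CPM, and infested ones did not, at 7.01, 51.1 and 16.4 CPM. At 96 HAI mock values were 14.3, 35.4 and 28.7 CPM and infested values 10.2, 5.11 and 8.38 CPM. Again, all infested libraries of 96 HAI lay below all mock libraries.

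The order of the 18 groups by mean level was not resolved by these replicates. For each of the 6 genes, all 17 pairs of neighbours in that order differed by no more than the larger of their standard deviations. The ends of the order were apart: mean PAD4 ran from 38.6 ± 4.15 CPM (SD, n = 3) in P746 mock leaves of 48 HAI down to 5.60 ± 1.42 CPM in Dongnong47 mock leaves of 48 HAI, a 6.90-fold span. GLYMA01G25690 was highest in infested Dongnong47 at 96 HAI (71.5 ± 27.2 CPM) and lowest in infested P203 at 96 HAI (11.8 ± 9.49 CPM). For GLYMA03G17420 the ends were 27.4 ± 10.2 CPM in infested Dongnong47 at 96 HAI and 7.44 ± 4.96 CPM in P746 mock leaves at 48 HAI.

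EDS1 and NPR1 had their low ends in Dongnong47. GLYMA04G34800 ran from 27.7 ± 12.2 CPM in P203 mock leaves of 48 HAI to 7.06 ± 4.70 CPM in infested Dongnong47 at 96 HAI. GLYMA06G19920 had its ends within Dongnong47 mock leaves, at 40.5 ± 29.3 CPM at 96 HAI and 8.95 ± 4.82 CPM at 48 HAI. NPR1 was highest in P203 mock leaves of 48 HAI (58.9 ± 22.9 CPM) and lowest in infested Dongnong47 at 96 HAI (23.1 ± 3.80 CPM).

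Replicates differed strongly. The ratio of the highest to the lowest library within a group had a median of 4.99 over the 18 groups for GLYMA01G25690, and it reached 19.7. In 12 of the 18 groups it was at least 3 for this gene, against 6 groups for PAD4 and 0 for NPR1, whose ratio reached 2.85. The standard deviation within groups, on log2(CPM + 0.5), was 1.32 for GLYMA01G25690, higher than in 96.0% of the 16229 genes of chromosomes 1 to 13 that averaged 5 CPM or more. It was 0.76 for GLYMA03G17420, 0.67 and 0.77 for the EDS1 genes GLYMA04G34800 and GLYMA06G19920, 0.82 for PAD4 and 0.45 for NPR1, against a median of 0.42 over those genes.

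The 6 genes varied as opposed blocks, with the ICS1 genes in one and EDS1, PAD4 and NPR1 in the other. Over the 54 libraries the ICS1 genes moved together (Spearman's rho 0.89, Pearson's r 0.88 on the log2 scale). Counts of this pair were not whole in 17 libraries while their sum was, and the part of that division of reads in their correlation was not tested. The EDS1, PAD4 and NPR1 genes also moved together, with rho from 0.73 to 0.87 and r from 0.64 to 0.88 in 6 pairs. Each of the 8 pairs between the blocks was negative, with rho from -0.90 to -0.75 and r from -0.85 to -0.73. With the 2 libraries farthest from the median of the first gene of a pair left out, r between the blocks was -0.85 to -0.74. These are descriptions of libraries that share their depth, scaling and design, and are given with no test.

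**Figure D2:**
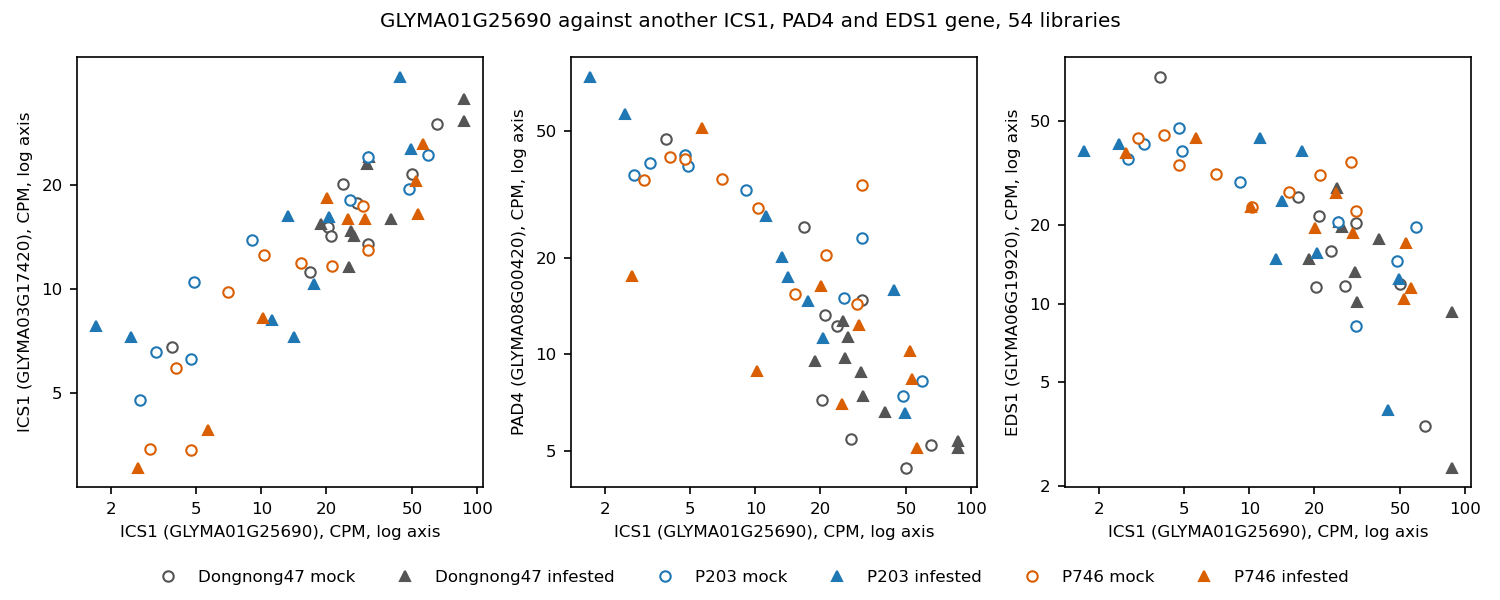
CPM of 3 genes (vertical log axes) against the ICS1 gene GLYMA01G25690 (horizontal log axes), 1 point per library, coloured by labelled genotype. The ICS1 gene GLYMA03G17420 is high where GLYMA01G25690 is high (rho 0.89), whereas PAD4 (rho -0.82) and the EDS1 gene GLYMA06G19920 (rho -0.83) lie lower where it is high.

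The opposition was present among replicates of the same group. With group means removed, the ICS1 genes correlated at r = 0.92, the EDS1, PAD4 and NPR1 genes at 0.50 to 0.89, and the blocks with each other at -0.83 to -0.73. In P203 mock leaves of 48 HAI, replicate 3 had 59.0 CPM of GLYMA01G25690 and 8.27 CPM of PAD4, where replicates 1 and 2 had 3.26 and 4.71 CPM of the former and 39.8 and 42.0 CPM of the latter. In 17 of the 18 groups, the library with the most GLYMA01G25690 had less PAD4 than the library with the least. The same held in 17 groups for the EDS1 gene GLYMA04G34800, in 15 for the EDS1 gene GLYMA06G19920 and in 16 for NPR1. GLYMA03G17420 followed GLYMA01G25690 in 17 of 18 groups by this measure. The share of other genes opposed to GLYMA01G25690 in this way within groups was not counted.

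**Figure D3:**
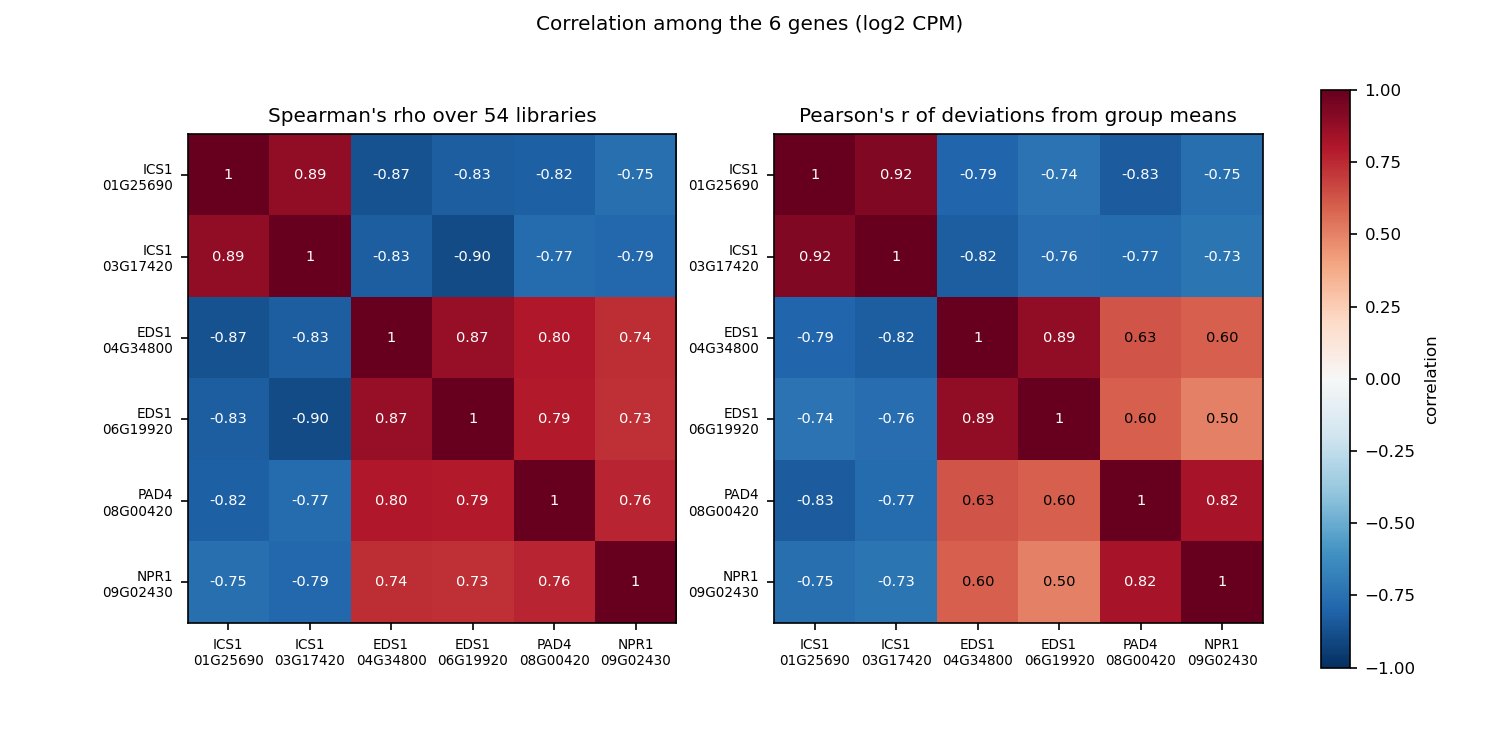
Correlations among the 6 genes on log2 CPM, over all 54 libraries (left, Spearman) and after subtracting group means (right, Pearson). Red is positive and blue negative: the ICS1 genes form one block (0.89 and 0.92), and the 8 pairs with EDS1, PAD4 and NPR1 are all negative, from -0.90 to -0.73.

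The pattern was seen in each genotype label, with rho between blocks of -0.91 to -0.65 in Dongnong47, -0.92 to -0.74 in P203 and -0.89 to -0.69 in P746. It was also seen within each set of libraries that shared identifiers of assembled loci, a feature described below (-0.86 to -0.63 over 18 libraries, -0.87 to -0.71 over 27 and -0.95 to -0.67 over 9). Without the libraries labelled Dongnong47, 96 HAI, infested, replicate 1 and P746, 48 HAI, infested, replicate 3 it was -0.89 to -0.74. Scaling by total counts in place of TMM weakened the values between blocks to between -0.77 and -0.48. Strong correlations were also found outside the 6 genes: 4.19% of 16223 other genes had a rho of -0.7 or less with GLYMA01G25690, and 2.80% had a rho of 0.7 or more. That limit is looser than the rho of -0.90 to -0.75 between the blocks over the 54 libraries. Total counts per library had a rho of -0.26 to 0.28 with the 6 genes. The TMM factor had a rho of -0.47 and -0.31 with the ICS1 genes and of 0.11 to 0.46 with the others, and its part in the pattern was not tested beyond the scaling by total counts.

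Of the annotated genes on chromosomes 1 to 13, those most like each member by Spearman's rho over the 54 libraries were the following. GLYMA01G25690 was followed by GLYMA05G33500 (0.92), GLYMA07G11600 (0.92) and GLYMA06G17345 (0.92), and GLYMA03G17420 by GLYMA01G40041 (0.92), GLYMA06G09240 (0.91) and GLYMA08G22340 (0.91). The EDS1 gene GLYMA04G34800 was most like GLYMA06G19890 (0.93), which the study's list also names EDS1, then GLYMA07G10541 (0.92) and GLYMA05G24770 (0.92). For the EDS1 gene GLYMA06G19920 they were GLYMA04G36450 (0.93), GLYMA10G07860 (0.92) and GLYMA05G33080 (0.91). PAD4 was accompanied by GLYMA05G32756 (0.95), GLYMA13G26630 (0.92) and GLYMA06G47560 (0.92). NPR1 had GLYMA03G34480 (0.89), GLYMA10G36360 (0.89), a gene of the NAC family of transcription factors in the study's tables, and GLYMA05G33050 (0.88).

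The first comparison asked which of the 6 genes responded to aphids in each genotype. At 96 HAI the infested leaves of Dongnong47 and P746 had higher mean levels of ICS1 and lower mean levels of EDS1, PAD4 and NPR1 than mock leaves, whereas in P203 infested and mock leaves overlapped for all 6 genes. PAD4 in Dongnong47 was the single call among 54 tests of a member (a log2 fold change, log2FC, of 1 or more in size with a Benjamini-Hochberg adjusted p below 0.05 in edgeR's quasi-likelihood test). It fell by 2.33 on the log2 scale (SE 0.51, adjusted p = 0.0453), from 28.5 ± 17.2 to 5.69 ± 0.80 CPM (SD, n = 3). That is 1 of 6 members called in Dongnong47 at 96 HAI, where 9.26% of all tested loci were called. The share includes loci without a value in one group, taken as 0, whereas the members lacked none.

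The PAD4 call was at the edge of the threshold. Leaving out any of the 6 libraries except mock replicate 1 ended it (log2FC of -2.42 to -1.75, adjusted p of 0.0676 to 0.134), and leaving out the library labelled Dongnong47 replicate 1 of the infested group, whose markers were not those of Dongnong47, gave -2.24 (adjusted p = 0.124). The libraries of this comparison met the rule used here for pairing by replicate number (r over 0.1 for every number). With the replicate number as a block, the log2FC was -2.15 and the call was lost (adjusted p = 0.105).

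The other members in Dongnong47 at 96 HAI had large differences that edgeR did not call, although infested and mock libraries did not overlap for any of the 6 genes, against 36.5% of all tested loci. GLYMA01G25690 had a log2FC of 2.37 (SE 0.69, adjusted p = 0.0990). GLYMA03G17420, at 14.3, 6.78 and 11.2 CPM in mock and 30.6, 16.0 and 35.5 CPM in infested leaves, had a log2FC of 1.35 (SE 0.42, adjusted p = 0.112). The EDS1 gene GLYMA06G19920 was measured at 21.7, 74.3 and 25.6 CPM in mock against 9.28, 17.7 and 2.35 CPM in infested leaves, a log2FC of -2.05 (SE 0.86, adjusted p = 0.205).

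Smaller values were found for the other EDS1 gene and NPR1. GLYMA04G34800 had 11.8, 26.2 and 14.8 CPM in mock and 8.07, 11.2 and 1.94 CPM in infested leaves of Dongnong47 at 96 HAI (log2FC -1.31, SE 0.68, adjusted p = 0.296). NPR1 had 29.1, 68.7 and 36.7 CPM in mock and 19.8, 22.1 and 27.3 CPM in infested leaves (log2FC -0.97, SE 0.39, adjusted p = 0.188). DESeq2, the tool of the study, called 4 of the 6 members there (both ICS1 genes higher, GLYMA06G19920 and PAD4 lower), against 20.9% of the loci it tested.

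In P746 at 96 HAI edgeR called 0 of the 6 members, where it called 4.85% of all tested loci, although 4 had an unadjusted p under 0.05. GLYMA01G25690 had a log2FC of 1.79 (SE 0.59, adjusted p = 0.179), and PAD4 of -1.68 (SE 0.43, adjusted p = 0.107). The EDS1 gene GLYMA04G34800 had 22.6, 24.1 and 19.6 CPM in mock and 11.7, 6.64 and 11.1 CPM in infested leaves, a log2FC of -1.14 (SE 0.28, adjusted p = 0.0969). The EDS1 gene GLYMA06G19920 had 35, 31.3 and 23.5 CPM in mock and 10.4, 11.5 and 17.1 CPM in infested leaves, a log2FC of -1.18 (SE 0.29, adjusted p = 0.0935).

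These are the 4 members whose groups did not overlap in P746 at 96 HAI (29.7% of all tested loci), and the 4 that DESeq2 called (14.6% of its loci). GLYMA03G17420 and NPR1 had log2FCs of 0.69 and -0.44 there (adjusted p = 0.288 and 0.591). Without mock replicate 1, edgeR called GLYMA01G25690 (log2FC 2.67, adjusted p = 0.00921) and PAD4 (-1.99, adjusted p = 0.0494). That library had the most GLYMA01G25690 and the least PAD4 of its group, so these added calls follow from leaving it out. Infested replicates 2 and 3 of P746 at 96 HAI also differed from its mock libraries in the marker genes, as given above. That difference cannot be told apart from infestation here.

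In P203 at 96 HAI, groups overlapped for all 6 members (35.4% of all tested loci did not overlap), log2FCs lay between -0.38 and 0.46, and the lowest adjusted p was 0.558. Neither edgeR (4.98% of all tested loci) nor DESeq2 (18.3%) called a member, and 0 of 6 had an unadjusted p under 0.05. PAD4 in P203 had a log2FC of 0.12 (SE 0.70) and GLYMA01G25690 of -0.38 (SE 1.06).

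**Figure D4:**
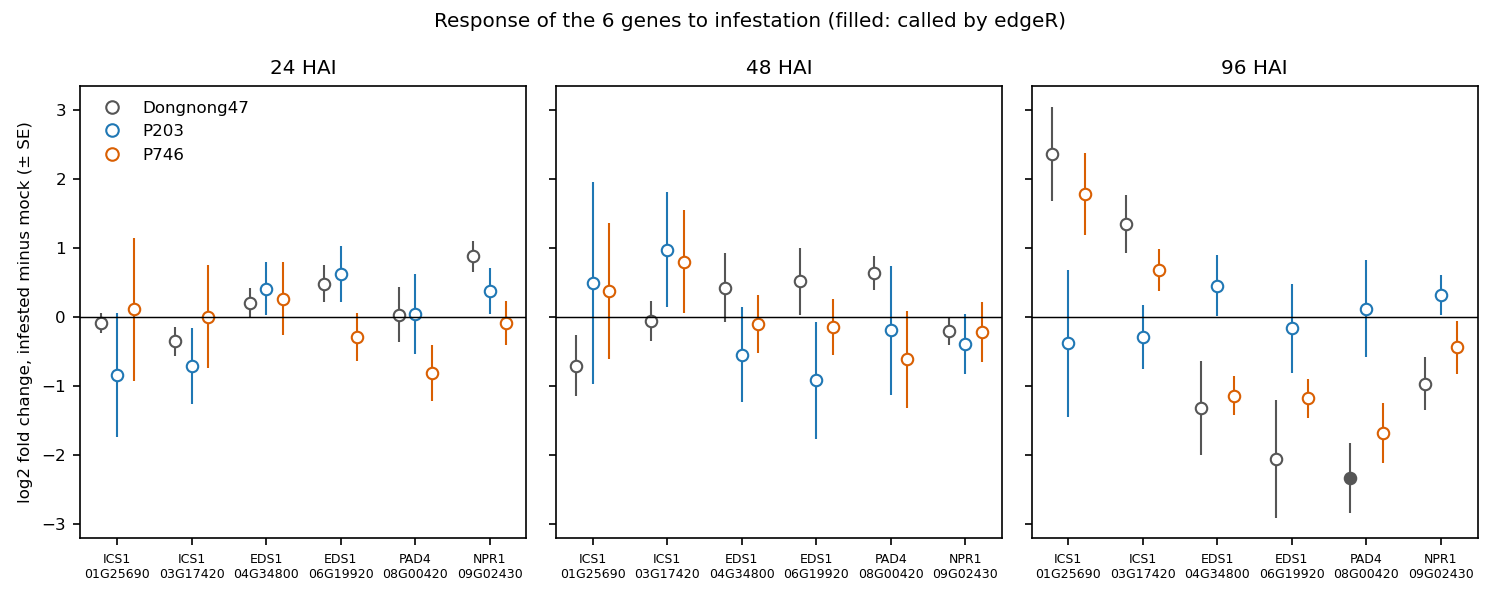
log2 fold change of infested over mock leaves (vertical axis, bars ± SE) for each gene at 24, 48 and 96 HAI, coloured by labelled genotype. Filled points are called by edgeR, which is PAD4 in Dongnong47 at 96 HAI (-2.33); at 96 HAI Dongnong47 and P746 lie above 0 for both ICS1 genes and below 0 for the other 4.

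The infested and mock libraries of 96 HAI also differed in how they were processed. This was read from the identifiers of assembled loci (loci without an annotated gene). Identifiers found in both libraries of a pair made up a median of 0.0158 of those found in either for 96 HAI mock with 96 HAI infested. The median was 0.511 for 96 HAI infested with 48 HAI infested and 0.606 for mock with infested at 24 HAI. An identifier was not shown to name the same locus in every library. By this measure the libraries fell into a set of 24 HAI, a set of 48 HAI with the infested ones of 96 HAI, and a set of 96 HAI mock. Abundant genes of chromosomes 14 to 20 lacked a value in a median of 45.1% of cases in 96 HAI mock libraries and of 6.51% in infested ones. Infestation and this difference cannot be told apart at 96 HAI. With chromosomes 1 to 13 alone, PAD4 in Dongnong47 had nearly the same log2FC (-2.32) and was not called (adjusted p = 0.0592).

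At 24 and 48 HAI, edgeR and DESeq2 each called 0 of 36 tests of a member, and 2 had an unadjusted p under 0.05. The share of all tested loci that edgeR called at these times was 1% and then 5.35% for Dongnong47, 0% and then 0.0655% for P203, and 0% at each time for P746. DESeq2 called 3.19% and then 11.7% of its loci for Dongnong47, 0.262% and then 1.92% for P203, and 6.31% and then 1.16% for P746. The test with the lower p was NPR1 in Dongnong47 at 24 HAI, which had 34.0, 28.0 and 24.9 CPM in mock and 42.7, 51.4 and 66.8 CPM in infested leaves. All infested values were above all mock values (groups did not overlap for 15.3% of all tested loci), with a log2FC of 0.88 (SE 0.23, adjusted p = 0.308). PAD4 in Dongnong47 at 48 HAI, given above, had a log2FC of 0.64 (SE 0.24, adjusted p = 0.164), with no overlap (35% of all tested loci) and in the direction opposite to 96 HAI. In P203 and P746 the groups overlapped for all 6 members at both time points. Among the infested P746 libraries of 24 HAI, replicates 1 and 3 carried P203 forms of the marker genes, as given above.

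Whether genotypes responded differently was tested with interaction terms. With edgeR, 0 of 36 were called, 4 had an unadjusted p under 0.05, and DESeq2 called 0 (0.738% to 5.89% of its loci over the 6 comparisons). Of all tested loci, edgeR called 0.0441%, 0.0822% and 0.173% for P203 against Dongnong47 at 24, 48 and 96 HAI, and 0.0136%, 0.0112% and 0.173% for P746 against Dongnong47. The lowest adjusted p in edgeR was that of PAD4 at 96 HAI (adjusted p = 0.325), where the log2FC in P203 exceeded that in Dongnong47 by 2.43 (SE 0.93). At 96 HAI the same difference was -2.69 (SE 1.36, adjusted p = 0.391) for GLYMA01G25690 and -1.61 (SE 0.65, adjusted p = 0.329) for GLYMA03G17420. Thus a response called in Dongnong47 and not in P203 was not shown to differ between them. P746 minus Dongnong47 at 96 HAI gave values between -0.70 and 0.83.

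The second comparison asked whether the genotypes differed without aphids. In mock leaves of 48 HAI, Dongnong47 had lower mean levels of EDS1 and PAD4 than the other genotypes, and PAD4 was called higher in P746 than in Dongnong47. This was the single call among 54 tests of a member in mock leaves (log2FC 2.79, SE 0.24, adjusted p = 0.0104), from 5.60 ± 1.42 CPM in Dongnong47 to 38.6 ± 4.15 CPM in P746 (SD, n = 3). At 48 HAI, 12.2% of all loci tested were called between these genotypes. The call was kept with the replicate block (2.81, adjusted p = 0.0463), and leaving out Dongnong47 mock replicate 1 ended it (2.64, adjusted p = 0.0504). Both groups belonged to the same set of assembled loci. The 3 P746 libraries of this call had the P203 form at 94.1%, 95.6% and 89.7% of the marker genes that separate P203 from P746. The call can thus not be assigned to P746 as distinct from P203.

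The EDS1 genes pointed the same way in mock leaves of 48 HAI. GLYMA04G34800 had 8.04, 11.7 and 2.95 CPM in Dongnong47, 34.5, 35 and 13.7 CPM in P203 and 32.1, 24.5 and 17.8 CPM in P746. GLYMA06G19920 had 11.9, 11.6 and 3.38 CPM in Dongnong47, 40.9, 47.2 and 19.7 CPM in P203 and 44.3, 34.0 and 22.6 CPM in P746. For both genes, all libraries of P203 and P746 were above all libraries of Dongnong47.

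Their log2FCs were 1.70 (SE 0.55, adjusted p = 0.0947) and 1.90 (SE 0.56, adjusted p = 0.0772) for P746, and 1.83 (SE 0.60, adjusted p = 0.159) and 1.96 (SE 0.57, adjusted p = 0.132) for P203, none of them called. With chromosomes 1 to 13 alone, both were called in P746 (adjusted p = 0.0356 and 0.0265). NPR1 had 34.3, 38.4 and 29.4 CPM in Dongnong47 and 52.8, 58.1 and 56.2 CPM in P746, a log2FC of 0.72 (SE 0.17, adjusted p = 0.0505). In P746 against Dongnong47, 5 of the 6 members did not overlap (40.7% of all tested loci), and DESeq2 called 4 (20.5% of its loci). Without P746 mock replicate 3, edgeR also called both ICS1 genes lower in P746, GLYMA01G25690 (-3.35, adjusted p = 0.0208) and GLYMA03G17420 (-2.23, adjusted p = 0.0254). That library had the most of both ICS1 genes in its group, so these added calls follow from leaving it out.

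P203 against Dongnong47 in mock leaves of 48 HAI depended on 1 library. With all libraries edgeR called 0 of 6 members (3.39% of all tested loci; 3 had an unadjusted p under 0.05), and DESeq2 called 3 (12.8%). For 3 members the groups did not overlap, against 30.5% of all tested loci. PAD4 had a log2FC of 2.38 (SE 0.62, adjusted p = 0.110). Without P203 mock replicate 3, the library with 59.0 CPM of GLYMA01G25690, edgeR called 4 of the 6. That library lay farthest from the other P203 mock libraries in GLYMA01G25690 and PAD4. The added calls thus follow from leaving it out, show dependence on it and are no support for a difference. No share of all loci is given for that fit. PAD4 (2.83, adjusted p = 0.00605) and NPR1 (1.01, adjusted p = 0.0451) were then higher in P203, and GLYMA01G25690 (-3.53, adjusted p = 0.0246) and GLYMA03G17420 (-1.82, adjusted p = 0.0285) lower.

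Mock leaves of 24 HAI had the same arrangement in P746 against Dongnong47, with smaller differences. The libraries of P746 did not overlap with those of Dongnong47 for any of the 6 genes (16.4% of all tested loci), with both ICS1 genes lower and the other 4 higher in P746. log2FCs lay between -1.04 and 1.09, the lowest adjusted p was 0.381, and edgeR called 0 of 6 (0.415% of all tested loci; 2 had an unadjusted p under 0.05) and DESeq2 0. As an example, GLYMA06G19920 had 11.7, 16.0 and 20.3 CPM in Dongnong47 and 31.1, 43.2 and 26.7 CPM in P746 (log2FC 1.05, SE 0.29, adjusted p = 0.381). P203 against Dongnong47 at 24 HAI gave 0 calls with edgeR (0.236% of all tested loci) or DESeq2, with 0 of 6 at an unadjusted p under 0.05 and a lowest adjusted p of 0.968.

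At 96 HAI the mock leaves of the genotypes were not distinguished by any of the 6 genes. Over the P746 against P203 comparisons and those of 96 HAI, 0 of 30 tests were called by edgeR or by DESeq2, and 0 had an unadjusted p under 0.05. EdgeR called 0.594% of all tested loci for P203 and 0.802% for P746 against Dongnong47 at 96 HAI, and 0.185%, 0.028% and 0.0628% for P746 against P203 at 24, 48 and 96 HAI. DESeq2 called 0.186% to 3.21% of its loci over the 7 genotype comparisons in which it called no member. The largest absolute log2FC among the 30 was 0.91. At 48 and 96 HAI the comparison of P746 with P203 is limited by the marker genes, by which these labels cannot be taken as distinct genotypes.

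The third comparison followed the genes over time within a treatment. Mock leaves of Dongnong47 had more PAD4 RNA at 96 than at 48 HAI, and it was the single call among 72 tests of a member. PAD4 rose from 5.60 ± 1.42 to 28.5 ± 17.2 CPM (SD, n = 3), a log2FC of 2.36 (SE 0.52, adjusted p = 0.0291), where 18.9% of all tested loci were called. These libraries met the same rule for pairing. With the replicate block, PAD4 stayed called (2.20, adjusted p = 0.0446) and GLYMA01G25690 was called lower (-1.86, adjusted p = 0.0462, against -1.70, SE 0.73, adjusted p = 0.158 without the block).

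Leaving out any Dongnong47 mock library of 48 HAI ended the PAD4 call (adjusted p of 0.0819 to 0.0983), as did leaving out mock replicate 3 of 96 HAI (adjusted p = 0.0587). GLYMA06G19920 had a log2FC of 2.20 (SE 0.71, adjusted p = 0.0800) and GLYMA03G17420 of -1.04 (SE 0.38, adjusted p = 0.108) over the same interval. DESeq2 called 4 of the 6 members (25.6% of its loci), namely both ICS1 genes lower and GLYMA06G19920 and PAD4 higher at 96 HAI. The mock libraries of 48 and 96 HAI were in different sets of assembled loci, and time cannot be told apart from that difference.

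PAD4 in Dongnong47 mock leaves of 96 HAI thus took part in the calls over time and of infestation, and these comparisons share 3 libraries. Mean PAD4 in Dongnong47 was 10.8 ± 4.87, 5.60 ± 1.42 and 28.5 ± 17.2 CPM in mock leaves and 11.2 ± 1.49, 8.57 ± 1.08 and 5.69 ± 0.80 CPM in infested leaves at 24, 48 and 96 HAI. In infested Dongnong47 leaves none of the 6 members was called between 48 and 96 HAI by edgeR (2.44% of all tested loci; 1 had an unadjusted p under 0.05). DESeq2 called 1 (9.62% of its loci), GLYMA01G25690, from 27.1 ± 7.15 to 71.5 ± 27.2 CPM (edgeR log2FC 1.42, SE 0.39, adjusted p = 0.127).

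From 24 to 48 HAI in infested Dongnong47, NPR1 averaged 53.7 ± 12.2 and then 29.0 ± 5.87 CPM. Its adjusted p in edgeR was 0.0245, and its log2FC of -0.89 (SE 0.23) missed the threshold on size. GLYMA06G19920 averaged 22.6 ± 4.40 and then 12.7 ± 2.33 CPM (log2FC -0.84, SE 0.21, adjusted p = 0.0207), which missed it too. This was the interval with the most calls, at 32.5% of all tested loci, and 0 of the 6 members were called by either tool (3 had an unadjusted p under 0.05). Leaving out infested replicate 1 of 24 HAI or infested replicate 3 of 48 HAI brought NPR1 past it (adjusted p = 0.0222 and 0.0337). In NPR1 these libraries were the nearest of their groups to the other group. The libraries of 24 and 48 HAI were again in different sets, and loci without a value in one set enter the 32.5%. In mock leaves of Dongnong47 between these times, 0 of 6 members were called by either tool (edgeR 4.84% of all tested loci), and 0 had an unadjusted p under 0.05.

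In P203 and P746, 0 of 48 tests over time were called by edgeR or DESeq2, 4 had an unadjusted p under 0.05, and log2FCs lay between -1.63 and 1.69. The share of all tested loci called by edgeR from 24 to 48 HAI was 6.97% in mock and 7.36% in infested leaves of P203, and 8.47% and 0% in those of P746. From 48 to 96 HAI it was 3.71% and 0.0615% in P203, and 12.9% and 0% in P746. DESeq2 called 0.456% to 34.5% of its loci over the 10 time comparisons in which it called no member. Without infested replicate 2 of 48 HAI, both ICS1 genes were called higher at 48 than at 24 HAI in infested P203, GLYMA01G25690 (1.70, adjusted p = 0.0487) and GLYMA03G17420 (1.96, adjusted p = 0.0481). That library had the least of both ICS1 genes in its group, so these added calls follow from leaving it out.

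The pathway around the 6 genes was read from the study's own list of 24 SA genes, which was picked from these libraries and holds 3 of the members. Of the other 21 genes, edgeR called 3 of 19 tested in Dongnong47 at 96 HAI (9.26% of all tested loci) and 1 of 18 in P746 at 96 HAI (4.85%). The latter is near the share of all loci, and 2 of the former 3 are genes without a value in mock leaves. In each of the other 7 comparisons of infested with mock leaves it called 0, with 17 to 20 tested; over these 7, 14 tests had an unadjusted p under 0.05 and DESeq2 called 10, against 0.262% to 18.3% of its loci. The PAL2 gene GLYMA13G20800, of the phenylalanine route, was the one called in both genotypes.

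GLYMA13G20800 stood at 133, 320 and 214 CPM in mock and 22.2, 51.3 and 42.2 CPM in infested leaves of Dongnong47 at 96 HAI. It fell by 2.53 on the log2 scale (SE 0.49, adjusted p = 0.0301). In P746 at 96 HAI it had 129, 242 and 206 CPM in mock and 61.6, 33.6 and 48.7 CPM in infested leaves, and fell by 1.96 (SE 0.35, adjusted p = 0.0404). In Dongnong47, whose libraries of 96 HAI met the rule for pairing, the block ended the PAL2 call (-2.52, adjusted p = 0.102). Leaving out any library except mock replicate 1 also ended it (adjusted p of 0.0639 to 0.0968), as did the use of chromosomes 1 to 13 alone (adjusted p = 0.0511). In P746 leaving out any library except mock replicate 1 ended it too (adjusted p of 0.0766 to 0.142), as did chromosomes 1 to 13 alone (adjusted p = 0.0694), no filter (adjusted p = 0.0565) and the single fit of 54 libraries (adjusted p = 0.0867).

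The TGA2 gene GLYMA19G31050, a partner of NPR1 at promoters, and the MPK4 gene GLYMA18G47140, a kinase that restrains SA defense in Arabidopsis, were called higher in infested Dongnong47 at 96 HAI. Both lie in the region of missing values and lacked a value in all 3 mock libraries, where they were taken as 0. GLYMA19G31050 was at 19.8, 22.9 and 23.0 CPM and GLYMA18G47140 at 4.28, 5.73 and 2.11 CPM in the infested libraries, and no fold change is given.

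DESeq2 called a further 5 of these SA genes in Dongnong47 at 96 HAI beyond GLYMA13G20800 and the pair with missing values, or 8 of its 20 tested in all, against 20.9% of its loci. Among them, the WRKY33 genes GLYMA01G31921, GLYMA11G29720 and GLYMA02G39870 had log2FCs of -2.78, -3.12 and -1.87, the PAL1 gene GLYMA03G33880 of -3.21 and the EDS1 gene GLYMA06G19890 of -1.73. On chromosomes 1 to 13, the 14 tested of the 15 other SA genes had a median log2FC of -1.46 in Dongnong47 at 96 HAI, where all tested loci of those chromosomes had -0.0017. The medians were -0.57 in P746 and 0.48 in P203 at 96 HAI, beside 0.030 and 0.014 for all loci. At 24 HAI they were 0.41 in Dongnong47, 0.40 in P203 and -0.38 in P746, and at 48 HAI 0.43, -0.099 and 0.081. In Dongnong47 the median was thus above 0 at 24 and 48 HAI and below 0 at 96 HAI.

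The SA genes of the list were taken by the study from genes that differed among these libraries, so that their variation here is a description only. Of the 15 other SA genes on chromosomes 1 to 13, 13 had a negative rho with GLYMA01G25690 and a positive rho with PAD4 over the 54 libraries, as had 47.3% of 16211 other genes of those chromosomes. GLYMA13G20800 had -0.80 and 0.79, the PAD4 gene GLYMA04G38691 had -0.71 and 0.73, and GLYMA02G45260, which the study's list names NPR1, had -0.75 and 0.83. The exceptions were the EDS5 gene GLYMA11G11970 (0.17 and -0.21), whose Arabidopsis counterpart carries isochorismate out of the plastid, and the SNI1 gene GLYMA13G24121 (0.23 and -0.32), named for a repressor of SA defense in Arabidopsis. The 4 PAL genes of those chromosomes had a rho of -0.80 to -0.64 with GLYMA01G25690.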

How the data were processed

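Expected counts per gene were deposited by the authors, 1 file per library, with 18.0% to 23.3% of values not whole. The paper's methods name HISAT2 on Glycine_max_v2.1, StringTie for read numbers and RSEM for TPM, whereas the submitters' processing notes name CASAVA 1.8 and Bowtie, and which of them made these counts was not settled. They were joined by identifier into 53971 loci, a value that a library lacked was set to 0, and counts were rounded. R 4.3.3 with edgeR 4.0.16 (TMM scaling; quasi-likelihood test; low loci removed by filterByExpr at its limits of 10 counts and 15 in total; Benjamini-Hochberg over all tested loci) was run on 6 libraries per comparison and on 12 for interactions. DESeq2 1.42.0, other scalings, chromosomes 1 to 13, no filter, the replicate block, a fit of 54 libraries and left-out libraries were alternatives. Standard errors of log2FC come from the fold change and its test. p-values measure the spread between the 3 replicates.

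Replicate numbers were taken to pair libraries where r was over 0.1 for every number. This held in 2 of 9 treatment comparisons (Dongnong47, 24 and 96 HAI) and 1 of 9 genotype comparisons (P746 against Dongnong47, 48 HAI). It also held in 2 of 12 time comparisons (mock leaves of Dongnong47 and of P203, 48 to 96 HAI). Over all these comparisons r lay between -0.85 and 0.74. Libraries of unlike numbers were not compared, and no plant or day shared by a number is stated, so the rule cannot show that libraries were paired. Counts of the members ran from 24 to 2587.75 per library, so that counting noise is small beside the spread of replicates. Blank lines without an identifier held 0% of counts in 7 libraries. Chromosomes were read from identifiers, and 0 of 59048 RefSeq genes (Glycine_max_v4.0) matched by identifier. The members, lists and tests were chosen with earlier results of these data known. For each member the 3 annotated genes with the highest rho (mean of at least 5 CPM, pseudocount 0.5) were named, as were other SA genes called for infestation. Figures used matplotlib.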

Additional observations from a re-analysis of the deposited data

How the results depend on the processing

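Calls of the 6 genes are limited by 3 replicates per group and by libraries that go against their labels. The counts below stand without the share of all loci called under the same setting, so a change in them is no result about the members. In Dongnong47 at 96 HAI, for example, DESeq2 called 20.9% of its loci and edgeR 9.26% of those it tested. Of the 54 infested against mock tests of a member, 1 was called by edgeR, 8 by DESeq2, 5 with scaling by total counts, 2 in a single fit of 54 libraries, and 0 with chromosomes 1 to 13, with no filter or with the replicate block; leaving out a library gave 0 to 3. In mock leaves, the 1 call between genotypes became 7 with DESeq2, 2 with total counts, 3 with chromosomes 1 to 13 and 2 in the single fit (0 to 5 leaving out a library). Over time, the 1 call became 3 with the adjusted p alone, 5 with DESeq2, 4 with total counts, 2 with chromosomes 1 to 13, 2 with the replicate block and 2 in the single fit (0 to 3). For interactions, 0 calls were found under every alternative and with every library left out. Calls among the other SA genes, 4 in all (2 of them for genes that had no value in the 3 mock libraries), became 21 with DESeq2, 15 with total counts, 0 with the replicate block and 2 in the single fit, and lay between 2 and 8 with a library left out (2 without infested replicate 1 or 2 of Dongnong47 at 96 HAI, 8 without its mock replicate 1, and 7 without infested replicate 1 of Dongnong47 at 24 HAI). The cause of these shifts was not tested. None of the 33 member log2FCs that at least 1 of these fits called, left-out libraries included, changed sign among them. They were picked by being called and the fits share libraries, so a kept sign is no independent support. Their size did vary: NPR1 from 48 to 96 HAI in Dongnong47 mock leaves ran from 0.00065 to 1.24. RLE normalization left all 4 counts of member calls as they were. Scaling by total counts moved the median of genes on chromosomes 1 to 13 by over 0.1 in 22 of 30 comparisons, by -0.70 in Dongnong47 and -0.53 in P746 for infested against mock at 96 HAI. Beyond the PAD4 call for infestation, lost in Dongnong47 at 96 HAI, and GLYMA01G25690, gained in Dongnong47 mock leaves from 48 to 96 HAI, the replicate block changed no other call of a member.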
